A study of Mus musculus with 24 samples.

Results

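The mitochondrial respiratory chain is built largely from proteins that are encoded in the nucleus, and 90 of their genes are described here in the mouse hippocampus after contextual fear conditioning. Members were chosen by gene name, from symbols that start with Nduf (complex I), Uqcr (complex III), Cox4 to Cox8 (complex IV) or Atp5 (complex V), together with Sdha, Sdhb, Sdhc and Sdhd (complex II). Ndufa4, whose product is a subunit of complex IV despite its name, and its relative Ndufa4l2 were counted with complex IV. The other members were placed by name alone, among them Atp5sl with complex V. Of the 47593 genes in the count table, 31032 had a count in at least 1 library and 92 met the name rule after 4 symbols that end in -ps were left out. A member also needed at least 10 counts in at least 6 of the 24 libraries, which removed Cox7b2 and Cox8c and left 43 genes of complex I, 4 of complex II, 8 of complex III, 18 of complex IV and 17 of complex V. All 90 passed the filter on low counts in every comparison, though in comparisons with WT at 15 min Cox8b did so only through the other group.

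The libraries were poly(A) RNA-seq of hippocampi from 24 male C57BL/6J mice in 8 groups of 3, from WT mice and from mice labelled Tob-KO, the study's constitutive deletion of the antiproliferative gene Tob (Tob1). In each genotype 1 group was naive and the others were killed at 15 min, 1 h or 3 h from the conditioning, in which mice receive foot shocks in a new chamber. Mice in the behavioural tests were 8 to 12 weeks old. The comparisons asked how the hippocampal transcriptome of mice without TOB differs, before and after this acute stress. No group received another drug, virus or allele according to the labels, and each library came from its own mouse.

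Complexes I to IV pass electrons from NADH and succinate to oxygen, and complexes I, III and IV pump protons across the inner mitochondrial membrane. Complex V, the ATP synthase, uses the return of the protons to make ATP. Each complex except complex II also holds subunits made from the mitochondrial genome, so that proteins made from both genomes assemble together. Neurons depend on this pathway for the ATP that ion pumps use after synaptic activity, and complex IV has isoforms of several subunits that are known from heart, skeletal muscle, lung or testis.

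Each library held 28847989 to 41595972 counts (median 31169386), and the members took 0.761% to 0.880% of all counts. Levels are given as TMM-normalized CPM, the counts of a gene relative to the library's total. For Tob1, which encodes TOB, the 12 WT libraries had 33.7 to 44.4 CPM and the 12 labelled Tob-KO had 52.0 to 68.6 CPM, so its counts went against the label. The counts are summed over the whole gene and do not show which exon they came from. Directions between genotypes are therefore those of the labels. Markers of excitatory neurons, interneurons, astrocytes, oligodendrocytes and microglia were detected in all libraries, while the summed level of 10 choroid plexus markers ran from 28.8 to 4971 CPM. In these bulk libraries fewer cells of a type and less RNA per cell cannot be told apart.

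Subunits that assemble in equal or simple ratios were present at very different message levels. Levels were divided by the kilobases of annotated exon, merged over all transcripts of a gene. That length can exceed the length of the message made, which lowers the value, so ranks between genes depend on the annotation. The median of the 88 members with an annotated length was 38.4 CPM per kb. Cox8a, a small structural subunit of complex IV, was highest at 263 ± 16.9 CPM per kb (SD, n = 24), followed by the catalytic shell of the ATP synthase, Atp5a1 at 255 ± 7.93 and Atp5b at 248 ± 7.72 CPM per kb. The gap between the first of these and the others was smaller than the SD of Cox8a. Cox4i1, the largest nuclear-encoded subunit of complex IV, was at 230 ± 14.4 CPM per kb.

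Within complex I the level per kilobase ran from 2.66 CPM per kb for Ndufb2 to 89.3 CPM per kb for Ndufb9, both accessory subunits of the membrane arm, with a median of 30.3 CPM per kb. The exons annotated for Ndufb2 add up to 5628 bases against a median of 1631 bases over the members, which lowers its value per kilobase. Ndufv1, which binds NADH, was at 52.4 ± 1.72 CPM per kb and Ndufs1, the largest iron-sulfur subunit, at 19.1 ± 0.959 CPM per kb. Their annotated exons add up to 2634 and 8086 bases, which lowers the value of Ndufs1 per kilobase. In complex II the flavoprotein Sdha led at 102 ± 2.98 CPM per kb and the membrane anchor Sdhc was lowest at 22.6 ± 1.24 CPM per kb. Complex III was the most even, from 33.6 CPM per kb for the small subunit Uqcrq to 72.8 CPM per kb for Uqcr11, with a median of 65.1 CPM per kb. Complex V ran from 6.23 ± 0.381 CPM per kb for Atp5s, a coupling factor, to Atp5a1.

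**Figure D1:**
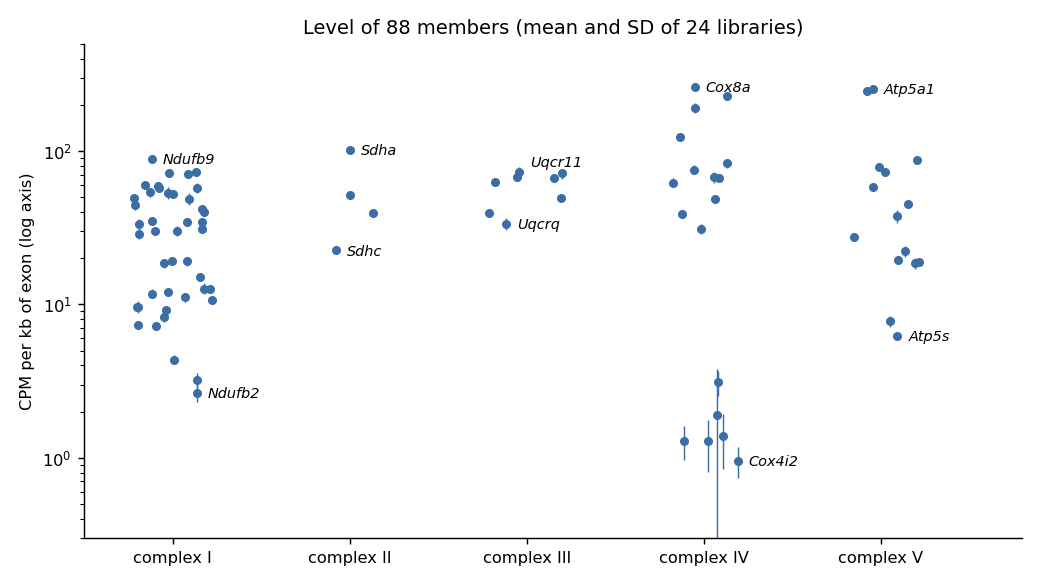
Mean level of the 88 members with an annotated exon length, in CPM per kilobase of exon on a log axis, by complex, with the highest and lowest member of each complex named and lines for the SD over 24 libraries. The 6 isoforms known from other tissues form a separate low set in complex IV, while no member of complexes II and III was under 22.6 CPM per kb; the lower SD line of Cox8b runs off the axis.

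Messages of tissue-restricted isoforms made up a small share of each isoform pair in complex IV. The median share over the 24 libraries, per kilobase, was 0.416% for Cox4i2, the isoform known from lung, against Cox4i1, and 1.55% for Cox6a2, known from heart and muscle, against Cox6a1. Cox6b2, known from testis, had a median share of 0.921% of its pair with Cox6b1. Cox7a1, another heart and muscle isoform, had a median share of 1.56% beside Cox7a2. Cox8b, also from heart and muscle, had a median share of 0.605% beside Cox8a with the widest range, from 0% to 2.90%. Ndufa4l2, a relative of the complex IV subunit Ndufa4, had a median share of 1.53%. Among the 3 genes that encode the identical c subunit of the ATP synthase ring, Atp5g3 was at 78.8 ± 3.88 CPM per kb. Atp5g1 was at 19.6 ± 1.28 and Atp5g2 at 18.9 ± 0.949 CPM per kb. The annotated exons of Atp5g3, Atp5g1 and Atp5g2 add up to 2181, 4912 and 1675 bases, which lowers the value of Atp5g1 per kilobase.

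Most members varied little between mice. The coefficient of variation of CPM over all 24 libraries had a median of 6.31%, and it was under 10% in 82 of the 90 members. The most even member was Sdha, at 2.93%. All 6 isoforms of complex IV known from other tissues were among the 8 members over 10%, with Cox8b at 105%, Cox6b2 at 39.3% and Cox7a1 at 37.4%. The other members over that limit were Ndufb2 at 13.1% and the assembly factor Ndufaf2 at 10.8%.

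The members are spread over 19 chromosomes, with 4 on chromosome 11, where Tob1 lies, and 3 on the X chromosome. RefSeq promoters of GRCm38.p6, each covering 250 bases before and 50 bases after a transcription start, were matched by symbol for 72 members, of which 5 had more than 1 start. They were searched on both strands for the consensus letters of NRF1 (GCGCANGCGC), ETS factors such as GABPA (CCGGAAG), YY1 (AAGATGGC) and CREB (TGACGTCA), factors known to act on respiratory genes. The ETS and YY1 letters can share 3 bases, but in 0 members did a match of one overlap a match of the other.

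A gene was counted if any of its promoters held the letters. NRF1 letters were found in 19 of the 72 members (26.4%), against 5.19% of the 27025 genes with a promoter. ETS letters were found in 17 members (23.6%) against 9.93%, and YY1 letters in 9 members (12.5%) against 3.19%. The CREB letters were rarer, in 4 members (5.56%) against 2.03%. At least 1 of NRF1, ETS and YY1 was found in 39 members (54.2%) against 16.4% of genes. Among the members this held for 10 of 13 in complex V, 3 of 3 in complex II, 3 of 5 in complex III, 20 of 38 in complex I and 3 of 13 in complex IV. The genes with a promoter were not limited to those expressed here and were not matched to the members in base composition. A match of letters is not evidence of binding. The sequences below show an example of the NRF1 letters in Uqcrc1, which has a pair of them, and the letters of ETS and YY1 in Ndufs8, Ndufb8 and Ndufa9, members described further on. The promoters of Ndufb3, Ndufaf2 and Cox8b, also described further on, held none of the 4, and that of Cox8b is shown. Capitals mark the motif, and all run 5′ to 3′ in the direction of the gene.
Uqcrc1 (core protein of complex III; chr9:108936398-108936697, + strand, NRF1 at bases 6 to 15 and 31 to 40 after the start): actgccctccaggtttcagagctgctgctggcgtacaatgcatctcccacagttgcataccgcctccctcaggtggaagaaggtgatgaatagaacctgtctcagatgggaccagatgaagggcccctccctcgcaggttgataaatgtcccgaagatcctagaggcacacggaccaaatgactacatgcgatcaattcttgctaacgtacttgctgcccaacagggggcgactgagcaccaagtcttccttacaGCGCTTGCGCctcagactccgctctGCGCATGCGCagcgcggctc
Ndufs8 (iron-sulfur subunit of complex I; chr19:3912725-3913024, - strand, ETS at bases 16 to 22): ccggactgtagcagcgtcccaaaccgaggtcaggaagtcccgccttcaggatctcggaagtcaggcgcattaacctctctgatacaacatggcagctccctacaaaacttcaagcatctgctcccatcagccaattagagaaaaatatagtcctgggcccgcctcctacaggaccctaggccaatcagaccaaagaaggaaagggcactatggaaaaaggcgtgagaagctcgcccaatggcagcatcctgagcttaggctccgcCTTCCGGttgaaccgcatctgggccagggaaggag
Ndufb8 (accessory subunit of complex I; chr19:44555393-44555692, - strand, YY1 at bases 39 to 46): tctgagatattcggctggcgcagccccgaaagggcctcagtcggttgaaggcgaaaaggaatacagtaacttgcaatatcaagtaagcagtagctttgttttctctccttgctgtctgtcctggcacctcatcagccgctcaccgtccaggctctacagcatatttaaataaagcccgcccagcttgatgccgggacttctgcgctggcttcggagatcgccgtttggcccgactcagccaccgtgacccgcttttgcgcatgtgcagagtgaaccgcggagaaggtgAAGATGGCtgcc
Ndufa9 (accessory subunit of complex I; chr6:126849095-126849394, - strand, YY1 at bases 30 to 37): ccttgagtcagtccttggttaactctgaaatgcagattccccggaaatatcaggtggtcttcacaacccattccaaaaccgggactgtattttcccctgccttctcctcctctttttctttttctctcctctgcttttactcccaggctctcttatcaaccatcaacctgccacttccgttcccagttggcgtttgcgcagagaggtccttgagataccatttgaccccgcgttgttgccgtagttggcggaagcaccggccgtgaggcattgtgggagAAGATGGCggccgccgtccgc
Cox8b (heart and muscle isoform of complex IV; chr7:140900397-140900696, - strand): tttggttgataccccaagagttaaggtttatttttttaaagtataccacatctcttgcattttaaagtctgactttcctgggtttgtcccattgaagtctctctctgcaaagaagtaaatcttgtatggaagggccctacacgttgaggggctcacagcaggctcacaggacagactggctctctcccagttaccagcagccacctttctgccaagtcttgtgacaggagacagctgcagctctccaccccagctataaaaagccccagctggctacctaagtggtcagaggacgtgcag

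Few respiratory chain messages were called between the genotypes at any single time. With only 90 members, calls this few are near the shares of all genes given beside them. At each time the 3 libraries labelled Tob-KO were compared with the 3 WT libraries by edgeR's exact test, with a gene called at a false discovery rate (FDR) of at most 0.05 over all genes tested. In naive mice 0 of the 90 members were called, beside 0.0381% of all genes, and 0 had an unadjusted p below 0.05, beside 4.04% of all genes. At 15 min 1 member was called, beside 0.746% of all genes in either direction and 0.566% called higher, and 3 had an unadjusted p below 0.05, beside 8.05% of all genes. At 1 h 0 members were called beside 0.121% of all genes, and at 3 h 0 members beside 0.0657%. With an unadjusted p below 0.05 there were 6 members at 1 h, beside 5.34% of all genes, and 0 at 3 h, beside 3.97%. With DESeq2, 0 members were called at every time.

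The differences were small, and at each time but 3 h mostly of 1 sign. In naive mice 71 of the 90 members were lower under the label Tob-KO, and their median log2 fold change was -0.04 where that of all genes was 0.006. At 15 min 73 were lower, with a median of -0.06 against -0.006 over all genes, and at 1 h 78 were lower, with a median of -0.06 against -0.001. At 3 h 45 were higher and 45 lower. Leaving out single libraries kept the median at 1 h between -0.08 and -0.03, with 10 to 20 members higher. Without WT naive replicate 1 the naive median was 0.001, and without WT naive replicate 3 it was -0.10. At 15 min it was -0.003 without WT replicate 2 and -0.09 without replicate 3 labelled Tob-KO. Among the members with the smallest p at 1 h was Ndufa13, an accessory subunit of complex I also known as GRIM-19. WT libraries had 69.5, 69.5 and 73.8 CPM, and the other libraries 66.6, 62.2 and 61.6 CPM (log2 fold change -0.16, SE 0.05, FDR 0.634). The difference did not pass the test across all genes.

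Over all times, with time as a factor, 12 libraries labelled Tob-KO were set against 12 WT libraries by edgeR's quasi-likelihood test. None of the members was called, beside 0.462% of all genes, and the count by DESeq2 was also 0. The median log2 fold change of the members was -0.04, and 76 of the 90 were lower. At an unadjusted p below 0.05 there were 15 members lower, where 6.51% of all genes were, and 2 higher, where 6.79% of all genes were. Of the 15, 10 belong to complex I, among them the core subunits Ndufs8 (log2 fold change -0.08, SE 0.03, FDR 0.17), Ndufv1 and Ndufs7. The others were Cox7b, Cox7a2 and Cox5b of complex IV, Atp5f1 of complex V, and Atp5sl, counted with complex V only by its name. The median was -0.05 in complex I, -0.04 in complexes III, IV and V and -0.02 in complex II. The 2 higher members were the muscle isoforms Cox8b and Cox7a1. The summed choroid plexus markers also differed between the genotypes, with a median of 385 CPM in WT libraries and 2171 CPM in those labelled Tob-KO.

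Cox8b was the member called at 15 min. Its counts were 3, 2 and 2 in the WT libraries and 5, 43 and 27 in those labelled Tob-KO, so the groups did not overlap but the lowest library labelled Tob-KO stood 2 counts above the highest WT library. In CPM these were 0.0876, 0.0686 and 0.0641 against 0.166, 1.21 and 0.647. The filter, at least 0.2 CPM in 2 of the 6 libraries, was thus met only by the higher 2 libraries labelled Tob-KO, so that Cox8b could be tested only because it was high in that group. Summed over the 3 libraries and scaled to their sizes, the 75 counts stood to the 7 counts at a ratio of 9.44, with a 95% exact interval of 4.36 to 24.3 that covers counting error only. The fitted log2 fold change was 3.14 (SE 0.75, FDR 0.0183 by the exact test), a value that depends on the prior count at such low levels. By edgeR's quasi-likelihood test and by DESeq2 it was not called, and the exact test called it in 1 of the 4 fits that left out a library and in which it passed the filter on low counts, the fit without replicate 1 labelled Tob-KO.

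The level of Cox8b ran together with the choroid plexus markers. In the 8 libraries with the lowest summed marker level, 28.8 to 66.7 CPM, Cox8b was at 0 to 0.230 CPM, and in the 8 with the highest, 2308 to 4971 CPM, it was at 0.758 to 3.08 CPM. All 3 WT libraries at 15 min had marker sums of 28.8 to 48.2 CPM, whereas those labelled Tob-KO had 69.3, 3402 and 1298 CPM. Cox6b2 followed the same split, at 0.847 to 1.19 CPM in the 8 lowest libraries and 1.63 to 3.02 CPM in the 8 highest, and the ranges of Cox7a1 overlapped, at 0.374 to 0.577 and 0.413 to 1.43 CPM. With the choroid plexus score of each library as a covariate, an alternative chosen after seeing the data, the log2 fold change of Cox8b at 15 min was 0.61 and it was not called. The highest library of all, at 3.08 CPM, was 1 of the naive mice labelled Tob-KO and also had the highest marker sum.

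**Figure D2:**
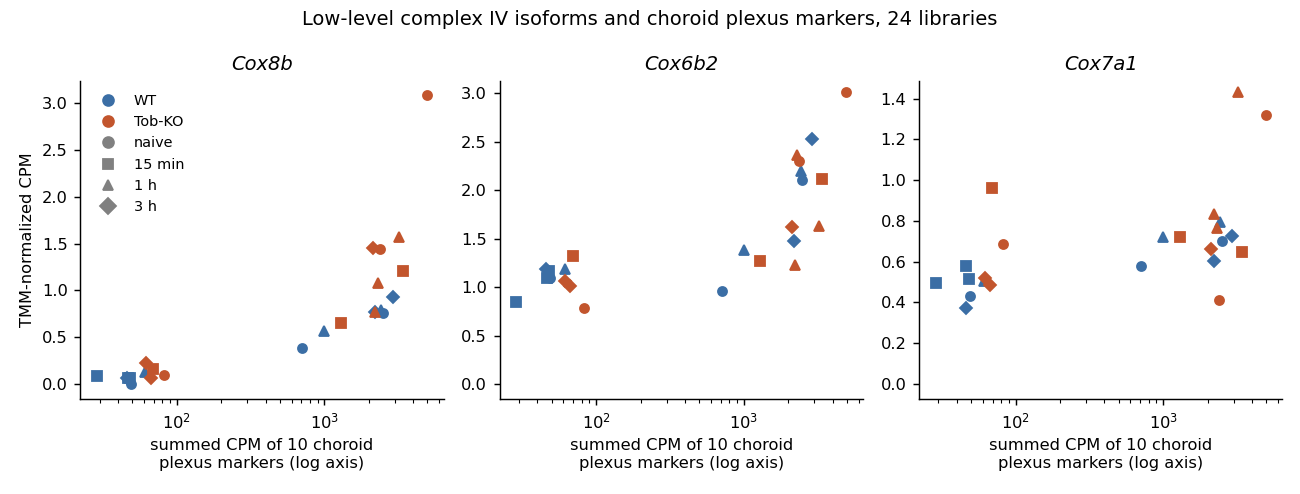
Level of 3 low-level complex IV isoforms, in CPM, against the summed level of 10 choroid plexus markers on a log axis, in each of the 24 libraries, with colour for the genotype label and shape for the time. Cox8b is at most 0.230 CPM in the 8 libraries with the lowest marker level and at least 0.758 CPM in the 8 with the highest, and the WT libraries at 15 min all sit at the left.

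After conditioning, with both genotypes together and genotype as a factor in the fit of all 24 libraries, more members were called. At 15 min 6 members had risen against naive mice by edgeR's quasi-likelihood test, and 0 had fallen. This was beside 4.70% of all 19500 genes called in either direction and 1.68% called higher. Of the 90 members, 83 were higher at 15 min, with a median log2 fold change of 0.08 against 0.003 over all genes. At an unadjusted p below 0.05 there were 37 members higher and 0 lower, where 9.44% of all genes were higher and 10.6% lower. The called members were the complex I subunits Ndufb3, Ndufb8, Ndufb9 and Ndufs8, the complex I assembly factor Ndufaf2 and Ndufa4l2. The 3 time points were compared with the same naive libraries.

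**Figure D3:**
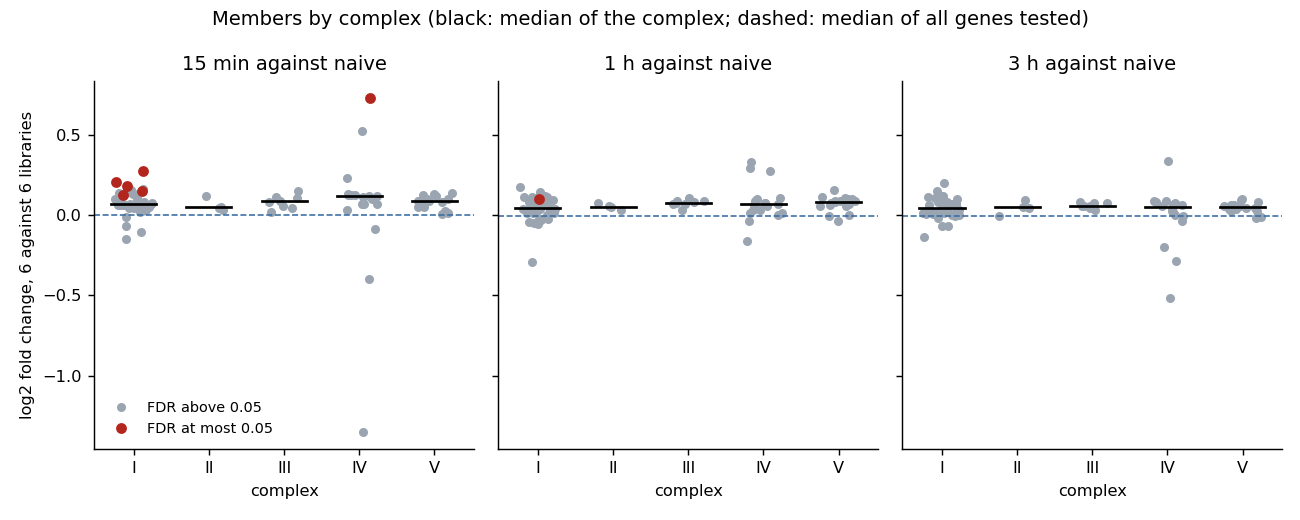
Log2 fold change of each member against naive mice, both genotypes together, by complex and time, with red points for members called at an FDR of at most 0.05, black bars for the median of a complex and a dashed line for the median of all genes tested. The medians of all 5 complexes lie above the dashed line at each time, between 0.04 and 0.12, and the widest spread is in complex IV, where Cox8b is lowest at 15 min with -1.35.

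Ndufa4l2 showed the largest rise. This gene, at chr10:127514967-127517154 on the forward strand of GRCm38, encodes a relative of Ndufa4 that is known as a target of hypoxia signalling and is expressed in pericytes. Naive WT libraries were at 1.40, 1.16 and 1.16 CPM and naive libraries labelled Tob-KO at 1.01, 0.880 and 0.915 CPM. At 15 min they were at 1.55, 2.30 and 1.54 CPM and at 1.82, 1.69 and 1.92 CPM. All 6 libraries at 15 min lay above all 6 naive libraries, and the log2 fold change was 0.73 (SE 0.14, FDR 0.00493). At 1 h and 3 h the log2 fold change was 0.33 (SE 0.15, FDR 0.194) and 0.34 (SE 0.15, FDR 0.499), and the libraries overlapped those of naive mice.

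Markers of blood vessel cells moved with this result. The summed level of 5 endothelial markers was 127 to 174 CPM in naive libraries and 166 to 248 CPM at 15 min, and that of 6 markers of pericytes and smooth muscle was 135 to 183 CPM and 179 to 242 CPM. None of these 11 markers was at 0 in all libraries. With the endothelial score of each library as a covariate, chosen after seeing the data, the log2 fold change of Ndufa4l2 was 0.62 and it was not called. In that fit 0 members were called, and the median of the 90 members at 15 min was 0.02.

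Ndufb3, an accessory subunit of the membrane arm of complex I, was the other called member whose groups did not overlap. Naive WT libraries were at 41.0, 39.2 and 34.9 CPM and naive libraries labelled Tob-KO at 38.9, 39.0 and 35.6 CPM. At 15 min WT libraries were at 41.8, 46.9 and 41.7 CPM and those of the other label at 43.1, 41.8 and 44.7 CPM. The lowest library at 15 min thus stood above the highest naive library, WT replicate 1, and the log2 fold change was 0.18 (SE 0.04, FDR 0.0191).

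Ndufaf2, which binds a late assembly intermediate of complex I, changed by a log2 fold change of 0.28 (SE 0.07, FDR 0.0228). Naive WT mice had 9.49, 8.61 and 8.29 CPM, naive mice labelled Tob-KO had 8.43, 8.17 and 8.12 CPM, and the values at 15 min were 9.17, 12.0 and 11.3 CPM and 9.58, 9.24 and 10.6 CPM. Its naive libraries labelled Tob-KO were all below those of 15 min, whereas WT naive replicate 1 lay above 2 of the later libraries. Ndufb8, an accessory subunit whose protein is used as a marker of assembled complex I, was at 28.5, 29.4 and 27.4 CPM and 29.4, 27.8 and 24.8 CPM in naive mice, and at 34.2, 37.0 and 30.2 CPM and 30.0, 27.8 and 34.1 CPM at 15 min. Its log2 fold change was 0.21 (SE 0.06, FDR 0.0494), and in WT the 3 libraries at 15 min were above the 3 naive ones, while those labelled Tob-KO overlapped.

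Ndufb9 and Ndufs8 rose by less. Ndufb9 was at 91.5, 92.1 and 78.7 CPM and 87.5, 89.0 and 83.6 CPM in naive WT and naive Tob-KO labelled libraries, and at 97.4, 104 and 92.3 CPM and 95.9, 88.1 and 103 CPM at 15 min (log2 fold change 0.15, SE 0.04, FDR 0.0409). Ndufs8, a core subunit that carries iron-sulfur clusters towards ubiquinone, was at 53.2, 51.4 and 47.2 CPM and 47.7, 48.8 and 46.9 CPM in naive mice and at 53.6, 61.3 and 52.7 CPM and 52.1, 49.98 and 53.7 CPM at 15 min (log2 fold change 0.13, SE 0.04, FDR 0.046). For both genes WT replicate 2 at 15 min was the highest and naive WT replicate 3 or a naive library labelled Tob-KO the lowest. Of the 4 subunits and 1 assembly factor of complex I called at 15 min, 0 were called at 1 h or 3 h.

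**Figure D4:**
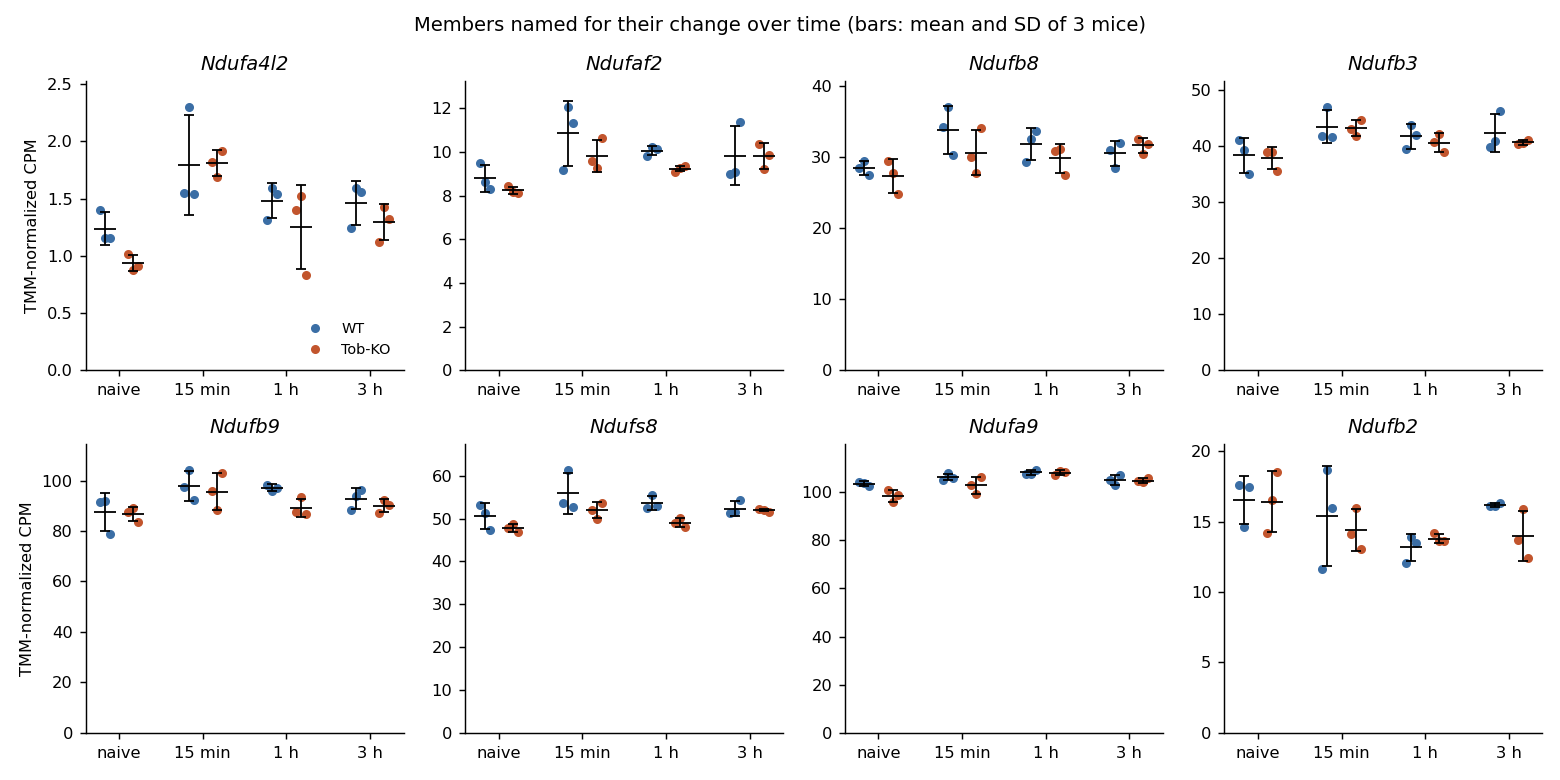
Level in CPM of 8 members of complexes I and IV in each of the 24 libraries, by time and genotype label, with bars for the mean and SD of 3 mice. Ndufa4l2 and Ndufb3 at 15 min lie above all naive libraries, the other 4 members called at 15 min overlap with naive mice, and at 1 h Ndufa9 lies above and Ndufb2 below all naive libraries.

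Groups of 6 that did not overlap were few at 15 min. Besides Ndufa4l2 and Ndufb3, all 6 libraries lay above the naive ones for Sdha, at 392 to 417 CPM in naive mice and 418 to 434 CPM at 15 min (log2 fold change 0.05, SE 0.02, FDR 0.232), so that 3 of 90 members showed this order, beside 0.754% of all genes. The number called depended on single libraries. It was 1 without WT replicate 2 at 15 min, without naive replicate 3 labelled Tob-KO or without replicate 3 at 15 min labelled Tob-KO, 3 without WT naive replicate 3 or without replicate 1 at 15 min labelled Tob-KO, 10 without replicate 2 at 15 min labelled Tob-KO and 17 without WT naive replicate 1. With WT replicate 2 at 15 min and naive replicate 3 of both labels left out together, chosen after seeing the data because they stood apart, 0 members were called and the median was 0.03. They stood apart in the member values themselves, low in naive mice and high at 15 min. Leaving them out therefore lowers the rise by construction.

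These libraries stood apart in a score, the mean over the 90 members of log2 CPM minus the mean of the 24 libraries. This score is made of the same values as the change at 15 min. It was -0.166 in naive WT replicate 3 and -0.117 in naive replicate 3 labelled Tob-KO, and it was highest at 0.146 in WT replicate 2 at 15 min. The same 3 libraries were at -0.229, -0.183 and 0.276 in the score of cytosolic ribosomal protein genes. Over groups, the member score was -0.04 ± 0.12 in naive WT and 0.05 ± 0.09 in WT at 15 min (SD, n = 3), and -0.06 ± 0.07 and 0.02 ± 0.04 in the corresponding groups labelled Tob-KO. Those ranges overlapped between naive mice and 15 min in both genotypes.

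**Figure D5:**
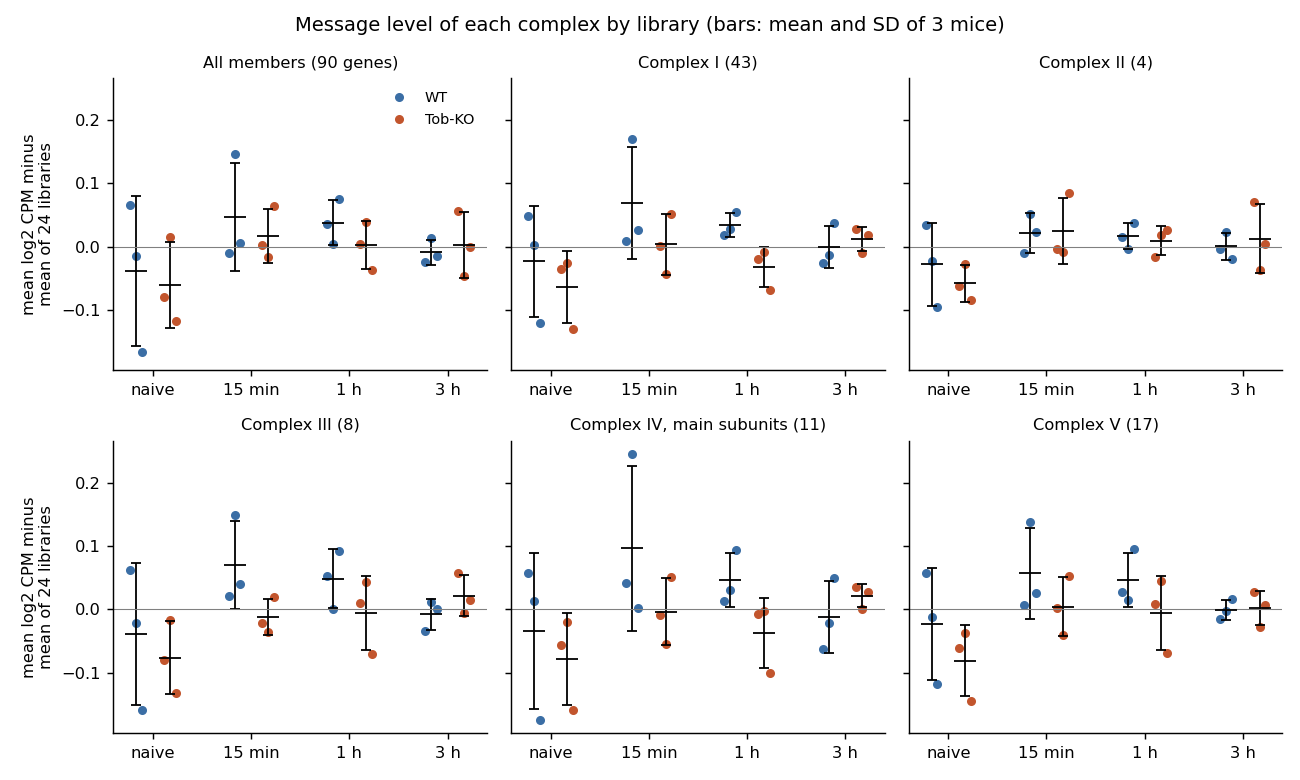
Mean log2 CPM of the members of each complex minus the mean of all 24 libraries, in each library, by time and genotype label, with bars for the mean and SD of 3 mice. The 11 main subunits of complex IV spread most, from -0.17 in a naive WT library to 0.25 in WT replicate 2 at 15 min, and the 4 genes of complex II spread least.

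At 1 h 1 member was called, beside 6.15% of all genes in either direction and 2.45% called higher. It was Ndufa9, a complex I subunit of the joint between the matrix and membrane arms, with a log2 fold change of 0.10 (SE 0.02, FDR 0.0117). Naive WT libraries had 104, 104 and 102 CPM and naive libraries labelled Tob-KO 101, 95.8 and 98.6 CPM, against 108, 108 and 109 CPM and 107, 109 and 108 CPM at 1 h. All 6 libraries at 1 h were above all 6 naive ones. Of 24 fits that left out a library, of any time, 10 gave 1 called member and the others 2 to 6. The highest count came without WT naive replicate 1 or replicate 3 at 15 min labelled Tob-KO. Of the 90 members 79 were higher at 1 h, with a median log2 fold change of 0.07 against -0.003 over all genes, and 28 were higher and 1 lower at an unadjusted p below 0.05, where 9.11% of all genes were higher and 10.8% lower.

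The member that was lower at 1 h was Ndufb2, another accessory subunit of the membrane arm of complex I. Its naive levels were 17.6, 14.6 and 17.4 CPM in WT and 14.2, 16.5 and 18.5 CPM in mice labelled Tob-KO, and its levels at 1 h were 12.1, 13.9 and 13.5 CPM and 14.2, 13.6 and 13.6 CPM. Each library at 1 h was below each naive one, by as little as 14.16 against 14.21 CPM, but the log2 fold change of -0.29 (SE 0.09, FDR 0.0679) did not pass edgeR's test across all genes. It was 1 of 90 members in this order, beside 417 of the 19500 genes tested. Above all naive libraries at 1 h were Ndufa9, Ndufs1, Atp5a1 and Atp5b, 4 of 90 members beside 1.55% of all genes. Ndufs1 was at 142 to 153 CPM in naive mice and 155 to 168 CPM at 1 h (log2 fold change 0.12, SE 0.04, FDR 0.0576). Atp5b, the catalytic beta subunit of the ATP synthase, had a log2 fold change of 0.09 (SE 0.03, FDR 0.0624), and Atp5a1, its alpha subunit, 0.07 (SE 0.03, FDR 0.186).

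By 3 h 0 members and 0% of all genes were called, and the count by DESeq2 was also 0 for the members. Of the 90 members 77 were higher than in naive mice, with a median of 0.05 against -0.007 over all genes. At an unadjusted p below 0.05 there were 14 members higher and 0 lower, where 3.92% of all genes were higher and 5.13% lower. The smallest p belonged to Uqcrc2, a core protein of complex III (log2 fold change 0.08, SE 0.03, FDR 0.457). In 0 members were all 6 libraries above those of naive mice, beside 0.262% of all genes.

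The medians of the 5 complexes lay close together at each time. In complex I the median log2 fold change was 0.07 at 15 min, 0.04 at 1 h and 0.05 at 3 h, and in complex II 0.05, 0.06 and 0.05. Complex III had medians of 0.09, 0.08 and 0.06, with 8 of 8 genes higher at every time. In complex IV the 11 main subunits had medians of 0.12, 0.07 and 0.07, with 11 of 11 higher at every time, while the 6 isoforms from other tissues had 0.07, 0.18 and -0.12. Complex V had medians of 0.09, 0.08 and 0.05, with 17, 15 and 15 of 17 genes higher. Inside complex V at 15 min, the 4 stalk genes Atp5f1, Atp5h, Atp5j and Atp5o had a median of 0.11 and the 5 genes of the F1 head 0.09, and 0 of them were called.

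Within each genotype, 3 libraries were set against 3 naive ones, and 0 members were called at any time by edgeR's quasi-likelihood test or by DESeq2. At an unadjusted p below 0.05 there were, in order of time, 5, 6 and 0 members in WT, beside 6.1%, 9.88% and 3.49% of all genes. Under the label Tob-KO there were 10, 7 and 13 members, beside 13.2%, 14.4% and 8.61% of all genes. Called in WT at an FDR of at most 0.05 were 0% of all genes at 15 min, 0.148% at 1 h and 0% at 3 h, and the medians of the members were 0.10, 0.08 and 0.03. In the libraries labelled Tob-KO the called share was 0.0272% at 15 min, 0.671% at 1 h and 0% at 3 h, and the medians were 0.08, 0.05 and 0.07. Same-numbered naive and 15 min libraries labelled Tob-KO deviated together, though they came from different mice and the labels give no pairing. Their summed choroid plexus markers were ordered alike over replicates 1 to 3. They were 82.6, 4971 and 2388 CPM in naive mice and 69.3, 3402 and 1298 CPM at 15 min. With a block for the replicate number the genes called went from 5 to 73, still with 0 members. The source of this gain was not tested. At 3 h in WT the median turned to -0.02 without WT naive replicate 3. Ndufa4l2 had the smallest p of the members at 15 min under the label Tob-KO (log2 fold change 0.95, SE 0.18, FDR 0.169), and in WT its log2 fold change was 0.52 (SE 0.23, FDR 0.812).

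Whether the change after conditioning differed between the genotypes was tested as an interaction over 12 libraries at each time. No member was called, beside 0.00526% of all genes at 15 min and 0% at 1 h and at 3 h, and DESeq2 also called 0. At an unadjusted p below 0.05 there were 2 members at 15 min, 1 at 1 h and 1 at 3 h, beside 3.37%, 3.68% and 4.66% of all genes. The median of the members was -0.009, -0.01 and 0.05 log2 units, with 42, 36 and 69 of 90 positive. Leaving out single libraries turned its sign at 15 min and at 1 h. At 15 min it was -0.06 without WT naive replicate 1 and 0.05, with 68 of 90 positive, without WT replicate 2 at 15 min. At 1 h it was -0.05 without WT naive replicate 1 and 0.04, with 60 of 90 positive, without WT naive replicate 3, and at 3 h it ran from 0.02 to 0.11. The smallest p at 15 min belonged to Ndufs1 (interaction 0.18 log2 units, SE 0.07, FDR 0.999), whose WT libraries were at 146, 133 and 152 CPM at 15 min and whose libraries labelled Tob-KO were at 159, 158 and 157 CPM. Ndufa4l2 had the largest interaction at 15 min among members over 1 CPM, 0.43 log2 units (SE 0.28, FDR 0.999).

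Message length moved with the change at 15 min. When the protein-coding genes tested were divided by exon length into 4 groups of 3787, the median log2 fold change at 15 min was 0.05 in the shortest group, up to 2744 bases, and 0.02, 0.005 and -0.02 in the longer groups. Of the 88 members with a length, 66 fell in the shortest group, where their median was 0.09, and 15 in the next, where it was 0.05. In the shortest group 64.5% of all genes were higher at 15 min, 53.7% at 1 h and 54.3% at 3 h. Of its 66 members 62, 58 and 58 were higher. Between genotypes over all times 46.5% of all genes in that group and 9 of the 66 members were higher. At 1 h all 4 length groups had a median of 0.01, and the members in the shortest group had 0.07. At 3 h the medians from the shortest to the longest group were 0.01, 0.004, -0.002 and -0.008, and the members in the shortest group had 0.06. Between genotypes over all times the medians were -0.008, -0.0009, 0.002 and 0.009, and the members in the shortest group had -0.04. The part of length in these results was not tested further.

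Other genes of the pathway, from lists fixed for comparison, moved in the same range. At 15 min 11 of 12 messages of the mitochondrial genome, which encode subunits of complexes I, III, IV and V, were higher. Their median log2 fold change was 0.14, with 0 called. Of 38 assembly factors outside the name rule 22 were higher, with a median of 0.02 and 0 called, and of 12 genes of ubiquinone, cytochrome c and electron transfer flavoprotein 7 were higher, with a median of 0.05 and 0 called. The tricarboxylic acid cycle, which supplies NADH and succinate, had 13 of 17 genes higher at 15 min with 0 called. At 1 h 15 of 17 were higher and, beside 2.45% of all genes, 3 were called higher. These were Pdha1 (log2 fold change 0.10, SE 0.03, FDR 0.0231), Dld (0.09, SE 0.03, FDR 0.045) and Sucla2 (0.09, SE 0.03, FDR 0.0421), which encode subunits of pyruvate dehydrogenase, of the dehydrogenase complexes that share lipoamide dehydrogenase and of succinyl-CoA ligase.

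Among 15 regulators of respiratory genes 7 were higher and 8 lower at 15 min, and 8 higher and 7 lower at 1 h, and those called were lower. At 15 min these were Polrmt, the RNA polymerase of mitochondria (log2 fold change -0.14, SE 0.04, FDR 0.0472), and Mterf3, which represses mitochondrial transcription (-0.28, SE 0.08, FDR 0.0444), beside 3.03% of all genes called lower. At 1 h the 2 called lower were Mterf1a, a mitochondrial transcription termination factor (-0.54, SE 0.12, FDR 0.00821), and Gabpb1, the partner of the ETS factor GABPA (-0.21, SE 0.06, FDR 0.0266), beside 3.71% of all genes called lower. At 3 h, and between genotypes over all times, 0 of the 15 were called. Between genotypes over all times, 33 of 38 assembly factors were lower under the label Tob-KO, and their median was -0.06 with 0 called.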

How the data were processed

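The authors isolated poly(A) RNA, made directional libraries and sequenced them as 150-bp read pairs, then mapped the reads to GRCm38 with STAR 2.6.1d and counted them on genes with HTSeq 0.9.0. The deposited table holds these raw counts without normalization. The annotation release, the strand setting and the treatment of reads that map to several genes are not given in the sources used here, so counts of members with processed pseudogenes or overlapping genes are uncertain, and without molecular identifiers counts are not independent molecules.

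Genotype was compared at each time with edgeR 4.0.16 in R 4.3.3, by the exact test of the study's methods after TMM normalization, over the 6 libraries compared and genes with at least 0.2 CPM in 2 of them. Changes over time, all times together and interactions used edgeR's quasi-likelihood test, which also gave the standard errors. A gene was called at a Benjamini-Hochberg FDR of at most 0.05 over all genes, without the study's 2-fold limit. Log2 CPM scores used a prior count of 2. Coordinates are 1-based, from the GENCODE annotation of GRCm38, and lengths are merged exons of all transcripts. Fits were tested on simulated data. Python 3.11.15 was used for summaries.

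Replicate pairs of each group differed by 3.68 to 22.8 chi-square units per degree of freedom, more than sampling noise, so all were counted as separate mice. Same-numbered libraries deviated together only between the naive and 15 min groups labelled Tob-KO among the groups compared (correlation 0.434 on average, lowest 0.148). WT naive and 3 h libraries labelled Tob-KO, which were not set against each other but share the fit of 24 libraries, did so too (0.394, lowest 0.182). These groups were found from the data, and the labels give no pairing. Members and lists were chosen with earlier results of these data known. The genes named were every called member, the 3 members with the largest log2 fold change at a mean of at least 1 CPM in each comparison (described where they bear on the text), fixed representatives, isoform pairs, the extremes of level and members with a printed sequence; members named for the smallest p or for groups that did not overlap were chosen after their values were seen.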

Additional observations from a re-analysis of the deposited data

How the results depend on the processing

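Depth limits the isoforms under 1 CPM most, and with 3 mice a group small shared shifts of the members cannot be told apart from library differences. The count of members called was 0 under every alternative tried in the comparisons that are not named here. For genotype at 15 min it fell from 1 to 0 under the quasi-likelihood test, DESeq2, the dispersion of all 24 libraries, the replicate block and the choroid plexus covariate, and was 0 to 1 when a library was left out. Cox8b had log2 fold changes of 0.61 to 3.20 over the alternatives. At 15 min under the label Tob-KO the count of 0 became 1 by the exact test and with the dispersion of 24 libraries, which at 1 h under that label also gave 1.

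At 15 min in both genotypes the count of 6 became 13 by DESeq2, 8 with RLE size factors, 4 without the filter, with the replicate block or with the choroid plexus covariate, and 0 with a 2-fold limit, with the endothelial covariate or without 3 libraries together, and it was 1 to 17 when a library was left out. The median stayed between 0.02 and 0.09 over the alternatives. At 1 h the count of 1 became 7 by DESeq2, 4 with RLE size factors, and 0 without the filter or with a 2-fold limit, stayed at 1 with the replicate block, and was 1 to 6 when a library was left out. Ndufa4l2 at 15 min and Ndufa9 at 1 h were called in 24 of 24 fits without a library. Ndufb3 and Ndufaf2 were called in 21, Ndufb9 in 18, Ndufs8 in 14 and Ndufb8 in 9. The 24 fits include those that left out a library of a time not compared, in which every library compared stayed. The causes of these shifts were not tested. Both covariates and the removal of 3 libraries were chosen after seeing the data. Same-numbered libraries deviated together in naive and 15 min mice labelled Tob-KO and in naive WT and 3 h mice labelled Tob-KO. The labels give no pairing for these or for the other pairs of groups. Beyond the counts given here the block changed no count of members.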

Other observations

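Genes of both ribosomes, which make the nuclear and the mitochondrial subunits of the chain, showed changes of similar size after conditioning. At 15 min 76 of 76 cytosolic ribosomal protein genes were higher than in naive mice by edgeR's quasi-likelihood fit, with a median log2 fold change of 0.14, and 5 were called, Rpl17, Rpl23a, Rpl14, Rpl21 and Rps24. At 1 h 71 of 76 were higher with a median of 0.05 and 0 called, and at 3 h 74 of 76 with a median of 0.05 and 0 called. Of 75 mitochondrial ribosomal protein genes 64 were higher at 15 min, with a median of 0.05, and 2 were called, Mrps16 (log2 fold change 0.23, SE 0.06, FDR 0.0162) and Mrpl40 (0.20, SE 0.06, FDR 0.0494). These calls were beside 1.68% of all genes called higher at 15 min, and the comparisons share the naive libraries.

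Between genotypes over all times 28 of 76 cytosolic ribosomal protein genes were higher under the label Tob-KO, with a median of -0.008 and 0 called, and 13 of 75 mitochondrial ribosomal protein genes, with a median of -0.04 and 0 called. At an unadjusted p below 0.05 the counts were 0 for the cytosolic genes in either direction, and 2 higher and 12 lower for the mitochondrial genes.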
